A study of Mus musculus with 30 samples.

Results

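The integrated stress response genes described here are 10 genes of the pathway that runs through the transcription factors ATF4 and CHOP: Ddit3, Trib3, Atf4, Atf3, Chac1, Asns, Sesn2, Ddit4, Psat1 and Slc7a11. They were taken as pathway members, and 2 of them, Ddit3 and Trib3, were named because they are high in Irf4 knockout cells. Their genotype differences are therefore given as a description with no test, and the other 8 genes were tested. These 8 and the further gene lists were also chosen with earlier results of these data known. Their counts beside the share of all genes are therefore descriptions. All 10 members were found among the 16358 genes with a named probe, and all 10 were among the 11250 genes that passed a filter on dim probes. Of the members 9 had 1 probe and Slc7a11 had 3, of which the brightest in Cy5 was used. All 300 member values, 10 genes on 30 arrays, were well above background in Cy5.

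In the integrated stress response, kinases that sense amino acid shortage, unfolded protein in the endoplasmic reticulum, double-stranded RNA or heme shortage phosphorylate the translation initiation factor eIF2alpha. General translation then slows while the messenger RNA of Atf4 is translated more, so much of ATF4 control lies above the level of RNA. ATF4 binds composite C/EBP-ATF elements and drives genes of amino acid synthesis and transport, and with sustained stress it drives Ddit3, which encodes CHOP. CHOP and ATF4 together drive Trib3 and Chac1, whose products bear on survival signalling and on glutathione.

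Dendritic cells were derived from mouse bone marrow in culture and selected on beads for CD11c, a surface integrin of this cell type. Knockout (KO) cells came from C57BL/6 mice with a CD11c-Cre transgene and flox/flox alleles of Irf4, and control cells from C57BL/6 mice with the CD11c-Cre transgene alone, so the Cre was present in every group and its deletion depended on the CD11c promoter. The 6 groups were KO unstimulated, KO with lipopolysaccharide (LPS, the bacterial ligand of TLR4) for 6 h, KO with LPS for 24 h, control unstimulated, control with LPS for 6 h and control with LPS for 24 h, each with 5 biological replicates. What 1 replicate stands for, an animal or a dish of cells, is not given in the labels. The p-values therefore reflect only how far arrays spread within groups, with 1 estimate of the spread per gene shared by the 6 groups. Sample RNA in Cy5 was hybridised against a universal mouse reference RNA in Cy3, and a level is the log2 ratio of sample over reference for 1 probe. Levels of different probes are not on a shared scale, so each gene was compared only with itself across groups.

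The labels were checked first. Irf4, the targeted gene, averaged -1.49 ± 0.8, -0.11 ± 0.3 and -0.03 ± 0.44 in KO cells without LPS, at 6 h and at 24 h, against 1.41 ± 0.24, 2.31 ± 0.24 and 2.14 ± 0.33 in control cells (log2 ratio, SD, n = 5 each). It was 7.48-fold, 5.34-fold and 4.5-fold lower in KO cells (limma, adjusted p = 3.59e-08, 8.79e-07 and 2.69e-06). Among 6 of 8 dendritic cell markers that passed the filter the mean log2 ratio of an array was between 1.62 and 4.08. Without LPS it was 1.62 to 2.84 in KO cells and 3.23 to 3.3 in control cells, with no overlap. Itgax, the gene of CD11c, was the 1 marker of the 6 with a higher mean in unstimulated KO cells. It was at 4.41 ± 0.24 there and at 4.01 ± 0.23 in unstimulated control cells. On 2 control arrays the 9 measured LPS response genes were near the unstimulated level. Their mean log2 ratio was -0.27 in control LPS 6 h replicate 3 and 0.25 in control LPS 24 h replicate 2, against 4.14 to 5.65 and 3.15 to 4.29 on the other 4 arrays of each group, and -0.24 to 0.31 in unstimulated control cells. Both arrays were on the 1 slide of the later scan day. For the members, values without that slide are given beside differences that use it. These are the genotype differences with LPS and the control LPS differences that passed the test, and the genotype differences of Ddit3 and Trib3. For Irf4, the markers and the other gene lists no values without that slide are given. The median Cy5 signal of an array was 101 to 151 and 44.8 to 66.1% of the 41174 probes were well above background.

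The promoter sequences are shown because ATF4 is known to act through an element that can be read in them. Promoter windows of RefSeq (GRCm38.p6), from 250 bases before to 50 bases after the annotated start, were found for all 10 members, in 11 windows because Psat1 has 2. They were searched on both strands for TGATGNAA, the core of the composite C/EBP-ATF element, TGACGTNA, an ATF and CREB element, GAAANNGAA, an IRF element, and GGAANNGAA, an ETS-IRF element. The composite core was present in the windows of 5 of 10 members (Trib3, Atf3, Chac1, Asns and Slc7a11), and 3.97% of all 32851 promoter windows in the table held it. TGACGTNA was found in 1 member, Atf3, and in 2.93% of all windows. GAAANNGAA was found in 0 members and 8.56% of all windows, and GGAANNGAA in 2 members, Asns and Psat1, and 8.24% of all windows. No matches overlapped. The 5 windows with the composite core are shown with that of Ddit3, which has none of these motifs here, each 5′ to 3′ on the strand of its gene. Capitals mark TGATGNAA or TGACGTNA in either orientation.
Trib3, chr2:152344011-152344310, minus strand: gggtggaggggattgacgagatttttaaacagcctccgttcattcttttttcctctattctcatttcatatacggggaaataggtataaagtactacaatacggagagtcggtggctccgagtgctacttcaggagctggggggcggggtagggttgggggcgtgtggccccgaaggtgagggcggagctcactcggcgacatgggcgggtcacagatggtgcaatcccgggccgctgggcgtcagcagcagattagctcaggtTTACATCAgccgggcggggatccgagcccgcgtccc
Chac1, chr2:119350992-119351291, plus strand: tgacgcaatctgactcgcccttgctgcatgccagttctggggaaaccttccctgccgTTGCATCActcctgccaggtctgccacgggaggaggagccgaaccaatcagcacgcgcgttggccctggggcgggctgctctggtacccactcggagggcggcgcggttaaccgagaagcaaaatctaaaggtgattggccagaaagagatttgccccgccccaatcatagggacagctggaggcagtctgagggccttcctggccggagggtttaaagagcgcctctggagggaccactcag
Asns, chr6:7693160-7693459, minus strand: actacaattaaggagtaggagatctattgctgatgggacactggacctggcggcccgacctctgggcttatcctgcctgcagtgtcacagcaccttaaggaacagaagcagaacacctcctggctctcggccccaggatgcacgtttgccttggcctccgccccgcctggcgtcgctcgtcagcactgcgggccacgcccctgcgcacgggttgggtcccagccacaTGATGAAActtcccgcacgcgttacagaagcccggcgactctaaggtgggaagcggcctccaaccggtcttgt
Slc7a11, chr3:50443564-50443863, minus strand: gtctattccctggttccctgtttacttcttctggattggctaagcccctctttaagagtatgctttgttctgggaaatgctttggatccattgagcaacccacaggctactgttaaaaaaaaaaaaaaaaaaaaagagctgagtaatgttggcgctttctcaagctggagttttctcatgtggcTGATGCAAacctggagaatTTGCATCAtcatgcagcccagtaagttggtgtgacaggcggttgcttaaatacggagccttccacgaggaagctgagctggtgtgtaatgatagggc
Atf3, chr1:191183284-191183583, minus strand: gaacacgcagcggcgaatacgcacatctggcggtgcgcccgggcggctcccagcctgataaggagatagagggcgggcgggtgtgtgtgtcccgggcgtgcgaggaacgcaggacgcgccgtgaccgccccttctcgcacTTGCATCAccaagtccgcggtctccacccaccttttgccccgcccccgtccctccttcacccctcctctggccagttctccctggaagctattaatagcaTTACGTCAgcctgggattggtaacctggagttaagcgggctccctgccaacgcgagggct
Ddit3, chr10:127290543-127290842, plus strand: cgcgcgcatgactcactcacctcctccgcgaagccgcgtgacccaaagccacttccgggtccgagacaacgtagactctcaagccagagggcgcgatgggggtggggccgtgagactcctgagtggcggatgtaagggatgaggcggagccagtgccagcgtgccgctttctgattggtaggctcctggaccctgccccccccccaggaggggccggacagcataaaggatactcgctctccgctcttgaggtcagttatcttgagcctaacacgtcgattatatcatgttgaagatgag
Counted from the start site, the composite core began at position 15 in Trib3, -193 in Chac1, -23 in Asns, -66 and -47 in Slc7a11 and -110 in Atf3, and the ATF and CREB element of Atf3 began at -10. A match describes the sequence only, and a window without one says nothing of elements elsewhere. The members with the composite core include both genes that differed between genotypes (Chac1, Asns) and one that did not pass the test at any time (Atf3), as described next.

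The question of the genotype comparison was which genes depend on Irf4 in these cells, without LPS and after 6 h and 24 h. Chac1, Asns and Atf4 were higher in KO cells at all 3 times, with Chac1 4.07-fold, 6.63-fold and 5.60-fold, Asns 3.62-fold, 4.85-fold and 5.93-fold and Atf4 1.82-fold, 2.37-fold and 2.06-fold higher. Psat1 was higher at 24 h (2.40-fold) and Slc7a11 at 6 h (1.96-fold). Atf3, Sesn2 and Ddit4 did not pass the test at any time. Of the 8 tested members 3, 4 and 4 were higher in KO cells at an adjusted p under 0.05 (limma, Benjamini-Hochberg over 11250 genes), where 6.95%, 6.21% and 6.95% of all genes tested were higher. None was lower, where 7.13%, 5.88% and 8.44% of all genes were lower. The median log2 difference over the 8 tested members was 0.34, 0.78 and 0.82, and 0.61, 1.11 and 1.15 with Ddit3 and Trib3, which were chosen on it, against -0.04, -0.01 and -0.01 over all genes tested.

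**Figure D1:**
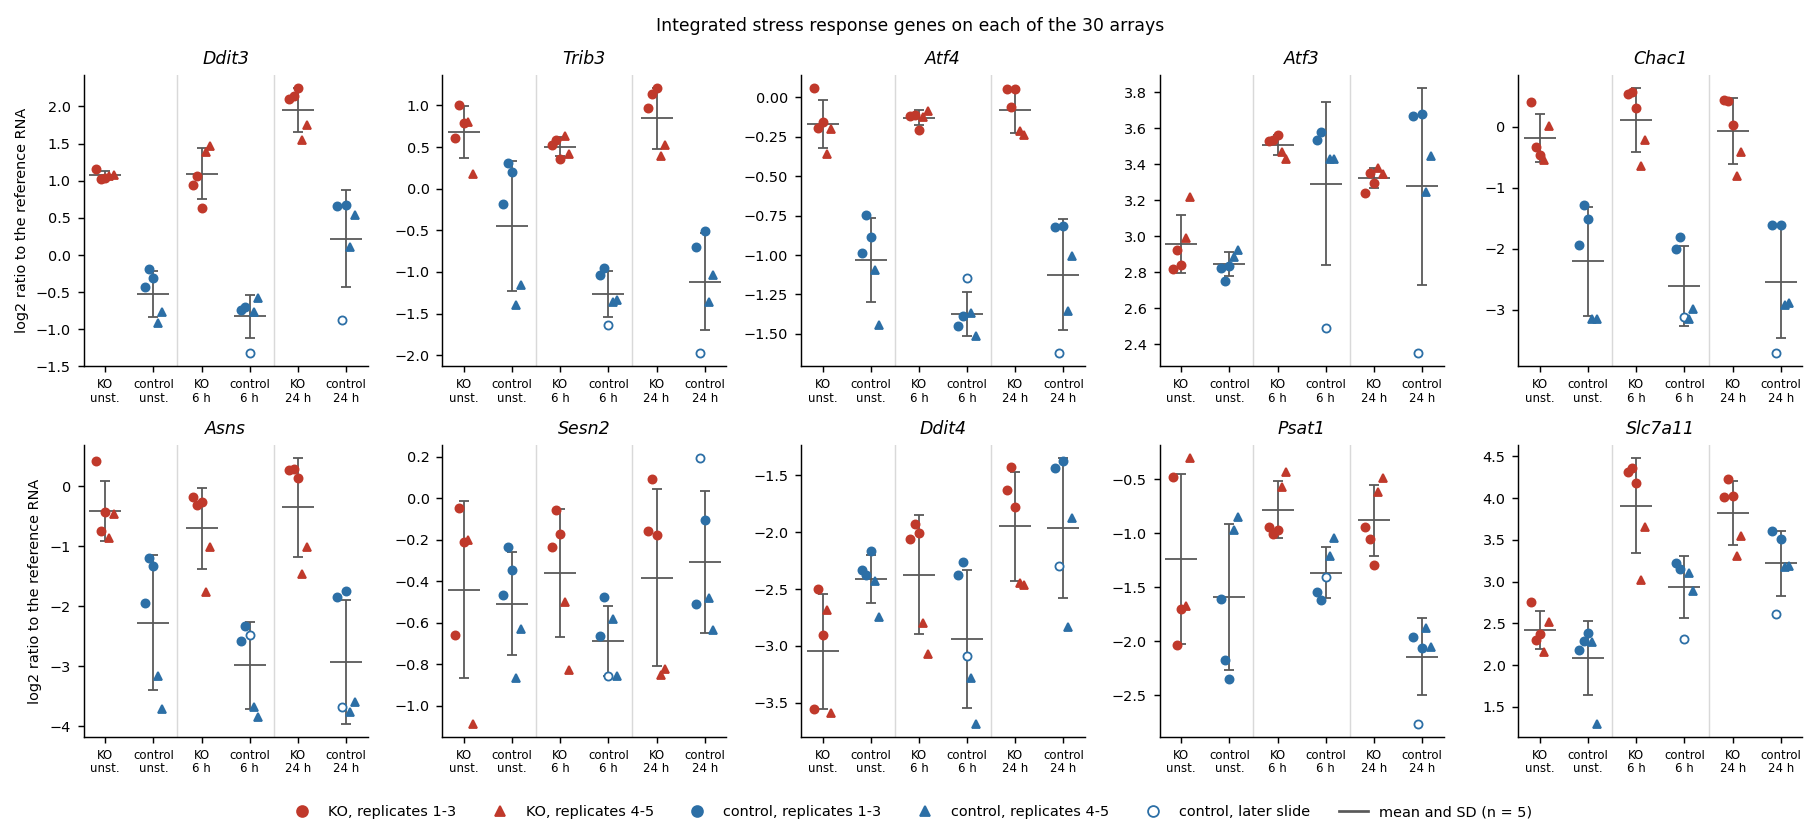
Log2 ratio of sample over reference RNA for the 10 genes on each of the 30 arrays, KO groups in red left of control groups in blue at each time, with circles for replicates 1-3, triangles for replicates 4-5, open symbols for the later slide and the group mean with its SD (n = 5). For Ddit3, Atf4, Chac1 and Asns the red and blue points do not overlap at any of the 3 times. For Atf3, Sesn2, Ddit4 and Slc7a11 they overlap at every time.

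Ddit3 encodes CHOP, a C/EBP family transcription factor that promotes death under sustained stress. It was selected for being high in KO cells. Its log2 ratios in replicates 1 to 5 were 1.16, 1.03, 1.03, 1.06 and 1.08 in unstimulated KO cells, against -0.44, -0.18, -0.3, -0.92 and -0.77 in unstimulated control cells. After 6 h of LPS they were 0.94, 1.07, 0.63, 1.38 and 1.46 in KO cells, against -0.74, -0.7, -1.32, -0.77 and -0.58 in control cells. After 24 h they were 2.09, 2.14, 2.25, 1.55 and 1.75 in KO cells, against 0.66, -0.88, 0.67, 0.11 and 0.54 in control cells. All KO arrays lay above all control arrays at each time, and the 5 unstimulated KO arrays lay between 1.03 and 1.16. The differences of the means were 1.59, 1.92 and 1.73 on the log2 scale, or 3.02-fold, 3.78-fold and 3.33-fold. Without the later slide, which holds the lowest control array at both LPS times, they were 1.79 at 6 h and 1.46 at 24 h.

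Atf4 encodes the factor at the centre of the response. Its log2 ratios were 0.06, -0.19, -0.16, -0.36 and -0.2 in unstimulated KO cells, against -0.99, -0.74, -0.88, -1.09 and -1.45 in unstimulated control cells. After 6 h of LPS they were -0.12, -0.11, -0.21, -0.12 and -0.08 in KO cells, against -1.45, -1.39, -1.14, -1.37 and -1.51 in control cells. After 24 h they were 0.05, -0.06, 0.05, -0.22 and -0.24 in KO cells, against -0.82, -1.62, -0.81, -1.35 and -1.01 in control cells. The KO arrays stayed in a narrow range and lay above every control array at each time. The difference was 0.86 (SE 0.14, adjusted p = 6.84e-05) without LPS, 1.24 (SE 0.14, adjusted p = 7.58e-07) at 6 h and 1.04 (SE 0.14, adjusted p = 5.55e-06) at 24 h. Without the later slide it was 1.3 (adjusted p = 8.4e-08) at 6 h and 0.92 (adjusted p = 9.65e-06) at 24 h.

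Atf3, a stress-induced repressor of the same bZIP family, is a target of ATF4 and also an early gene of TLR4 signalling. Its log2 ratios were 2.82, 2.92, 2.84, 2.99 and 3.22 in unstimulated KO cells, against 2.83, 2.75, 2.84, 2.88 and 2.93 in unstimulated control cells, and the groups overlapped. With LPS, 4 of 5 control arrays at 6 h were between 3.43 and 3.58 and replicate 3 was at 2.49, while the KO arrays lay between 3.43 and 3.57. The genotype difference was 0.11 (SE 0.19, adjusted p = 0.74) without LPS, 0.21 (SE 0.19, adjusted p = 0.525) at 6 h and 0.05 (SE 0.19, adjusted p = 0.911) at 24 h. It was 0.01 at 6 h and -0.18 at 24 h without the later slide.

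Trib3 encodes a pseudokinase that binds AKT and CHOP and acts as a brake on the response. It too was selected for being high in KO cells. Its log2 ratios were 0.61, 1.0, 0.79, 0.8 and 0.17 in unstimulated KO cells, against -0.19, 0.31, 0.2, -1.39 and -1.16 in unstimulated control cells, so that KO replicate 5 lay below control replicates 2 and 3. After 6 h of LPS they were 0.53, 0.58, 0.36, 0.64 and 0.41 in KO cells, against -1.03, -0.95, -1.63, -1.37 and -1.33 in control cells, and after 24 h 0.97, 1.13, 1.2, 0.39 and 0.52 in KO cells, against -0.7, -1.98, -0.51, -1.36 and -1.04 in control cells. At both LPS times every KO array lay above every control array. The differences of the means were 1.12, 1.77 and 1.96, or 2.18-fold, 3.41-fold and 3.89-fold. Without the later slide they were 1.68 at 6 h and 1.75 at 24 h.

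Chac1 encodes a gamma-glutamylcyclotransferase that breaks down glutathione and is a target of ATF4 and CHOP. Its log2 ratios were 0.4, -0.33, -0.46, -0.55 and 0.01 in unstimulated KO cells, against -1.94, -1.28, -1.52, -3.15 and -3.15 in unstimulated control cells. After 6 h of LPS they were 0.53, 0.58, 0.31, -0.65 and -0.21 in KO cells, against -2.0, -1.82, -3.12, -3.16 and -2.99 in control cells. After 24 h they were 0.44, 0.42, 0.02, -0.81 and -0.41 in KO cells, against -1.62, -3.71, -1.61, -2.92 and -2.9 in control cells. The groups did not overlap at any time. The difference was 2.03 (SE 0.41, adjusted p = 0.00111) without LPS, 2.73 (SE 0.41, adjusted p = 5.65e-05) at 6 h and 2.49 (SE 0.41, adjusted p = 0.000125) at 24 h. Without the later slide it was 2.6 (adjusted p = 9.96e-05) at 6 h and 2.2 (adjusted p = 0.000585) at 24 h.

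Asns encodes asparagine synthetase, a classical target of the amino acid branch of the response. Its log2 ratios were 0.42, -0.74, -0.43, -0.87 and -0.47 in unstimulated KO cells, against -1.95, -1.2, -1.33, -3.17 and -3.71 in unstimulated control cells. After 6 h of LPS they were -0.18, -0.31, -0.26, -1.76 and -1.01 in KO cells, against -2.58, -2.33, -2.47, -3.68 and -3.85 in control cells. After 24 h they were 0.28, 0.28, 0.13, -1.46 and -1.01 in KO cells, against -1.84, -3.67, -1.75, -3.77 and -3.59 in control cells. Every KO array lay above every control array at each time, although control replicates 4 and 5 were far below replicates 1 to 3 without LPS. The difference was 1.85 (SE 0.51, adjusted p = 0.0125) without LPS, 2.28 (SE 0.51, adjusted p = 0.00306) at 6 h and 2.57 (SE 0.51, adjusted p = 0.000816) at 24 h. Without control unstimulated replicate 5 the first of these was 1.49 and no longer passed (adjusted p = 0.054). Leaving out the later slide gave 2.41 (adjusted p = 0.00291) at 6 h and 2.38 (adjusted p = 0.00333) at 24 h.

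Psat1 encodes phosphoserine aminotransferase, the second enzyme of serine synthesis. After 24 h of LPS its log2 ratios were -0.94, -1.05, -1.3, -0.62 and -0.49 in KO cells, against -1.96, -2.76, -2.06, -1.87 and -2.06 in control cells. After 6 h they were -0.94, -1.0, -0.97, -0.57 and -0.43 in KO cells, against -1.55, -1.62, -1.4, -1.21 and -1.04 in control cells. At both times every KO array lay above every control array, but the 2 genotypes were closer at 6 h. The difference was 1.26 (SE 0.3, adjusted p = 0.00403) at 24 h, 0.58 (SE 0.3, adjusted p = 0.224) at 6 h and 0.35 (SE 0.3, adjusted p = 0.478) without LPS, where values ran between -2.04 and -0.31 in KO cells and between -2.35 and -0.85 in control cells. Control replicate 2, the lowest at 24 h, was on the later slide, without which the 24 h difference was 1.11 (adjusted p = 0.0172).

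Slc7a11 encodes the cystine-importing subunit of system xc-, which feeds glutathione synthesis. After 6 h of LPS its log2 ratios were 4.31, 4.36, 4.19, 3.02 and 3.65 in KO cells, against 3.23, 3.15, 2.32, 3.1 and 2.88 in control cells, and KO replicate 4 lay among the control arrays. The difference was 0.97 (SE 0.25, adjusted p = 0.0104) at 6 h, 0.33 (SE 0.25, adjusted p = 0.416) without LPS and 0.6 (SE 0.25, adjusted p = 0.111) at 24 h. The call at 6 h was lost with median centring in place of loess (adjusted p = 0.0722) and in a fit to the compared arrays alone (adjusted p = 0.0669). It was also lost with slide as a block, at 1.83 (adjusted p = 0.0608). Leaving out the later slide gave 0.82 (adjusted p = 0.0241) at 6 h. The 2 dimmer probes gave 0.86 and 1.14 at 6 h, and disagreed in sign without LPS, at -0.07 and 0.73.

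Sesn2 and Ddit4 (REDD1) encode stress-induced inhibitors of mTORC1 signalling. For Sesn2 the difference was 0.07 (SE 0.21, adjusted p = 0.871) without LPS, 0.33 (SE 0.21, adjusted p = 0.343) at 6 h and -0.08 (SE 0.21, adjusted p = 0.863) at 24 h. Ddit4 was the 1 member with a lower mean in unstimulated KO cells, at -3.56, -2.5, -2.91, -2.68 and -3.59, against -2.33, -2.37, -2.17, -2.43 and -2.75 in unstimulated control cells. Its difference was -0.64 (SE 0.31, adjusted p = 0.18) without LPS, 0.57 (SE 0.31, adjusted p = 0.259) at 6 h and 0.01 (SE 0.31, adjusted p = 0.985) at 24 h. With median centring the first of these was -0.93 and passed the test (adjusted p = 0.0255).

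In total every KO array lay above every control array for 4, 6 and 6 of the 10 members at 0, 6 and 24 h of LPS. These were Ddit3, Atf4, Chac1 and Asns without LPS, and the same genes with Trib3 and Psat1 at both LPS times. Among all genes tested this held for 8.73%, 4.72% and 5.64%. Since Ddit3 and Trib3 were selected on this contrast, the counts describe the members.

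**Figure D2:**
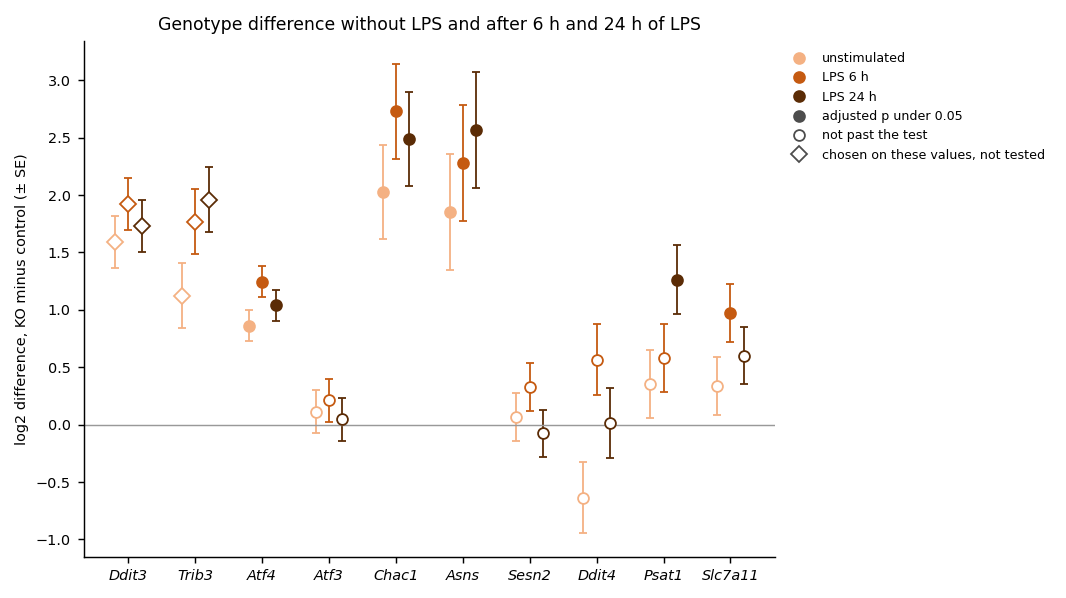
Log2 difference of KO minus control cells with its SE for each gene, from left to right without LPS and after 6 h and 24 h; filled circles passed the test, open circles did not, and diamonds mark Ddit3 and Trib3, which were chosen on these values. Chac1 and Asns lie highest, between 1.85 and 2.73, and Atf3 and Sesn2 lie between -0.08 and 0.33.

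Replicates 4 and 5 stood apart from replicates 1 to 3 for several members, in both genotypes. Asns without LPS averaged -3.44 in control replicates 4 and 5 and -1.49 in control replicates 1 to 3, and after 24 h of LPS -1.23 in KO replicates 4 and 5 and 0.23 in KO replicates 1 to 3. Psat1 ran the other way, at -0.91 and -2.04 in the same sets of unstimulated control cells. The labels give no reason for this split. Marker lists split between the same replicates. The macrophage marker mean of an array was 2.06 to 2.43 in replicates 4 and 5 and 3.45 to 3.56 in replicates 1 to 3 of KO cells at 24 h, and 0.65 to 0.68 against 1.84 to 2.05 in unstimulated control cells. At 6 h it was 1.96 to 2.4 against 3.17 to 3.25 in KO cells and 0.87 to 0.93 against 1.63 to 2.72 in control cells. The neutrophil marker mean ran the other way in these 4 groups, and the part of either in the split was not tested. Within replicates 1 to 3 alone the Chac1 difference between KO and control was 1.45, 2.78 and 2.61, and within replicates 4 and 5 alone it was 2.88, 2.65 and 2.3, without LPS, at 6 h and at 24 h. The Asns difference was 1.24, 2.21 and 2.65 within replicates 1 to 3 and 2.77, 2.38 and 2.45 within replicates 4 and 5. For Atf4 it was 0.78, 1.18 and 1.1 and 0.99, 1.34 and 0.95, so that these 3 genes had the same direction within both sets at every time. Trib3 without LPS differed by 0.70 within replicates 1 to 3 and by 1.76 within replicates 4 and 5, and Slc7a11 at 6 h by 1.39 and 0.34.

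**Figure D3:**
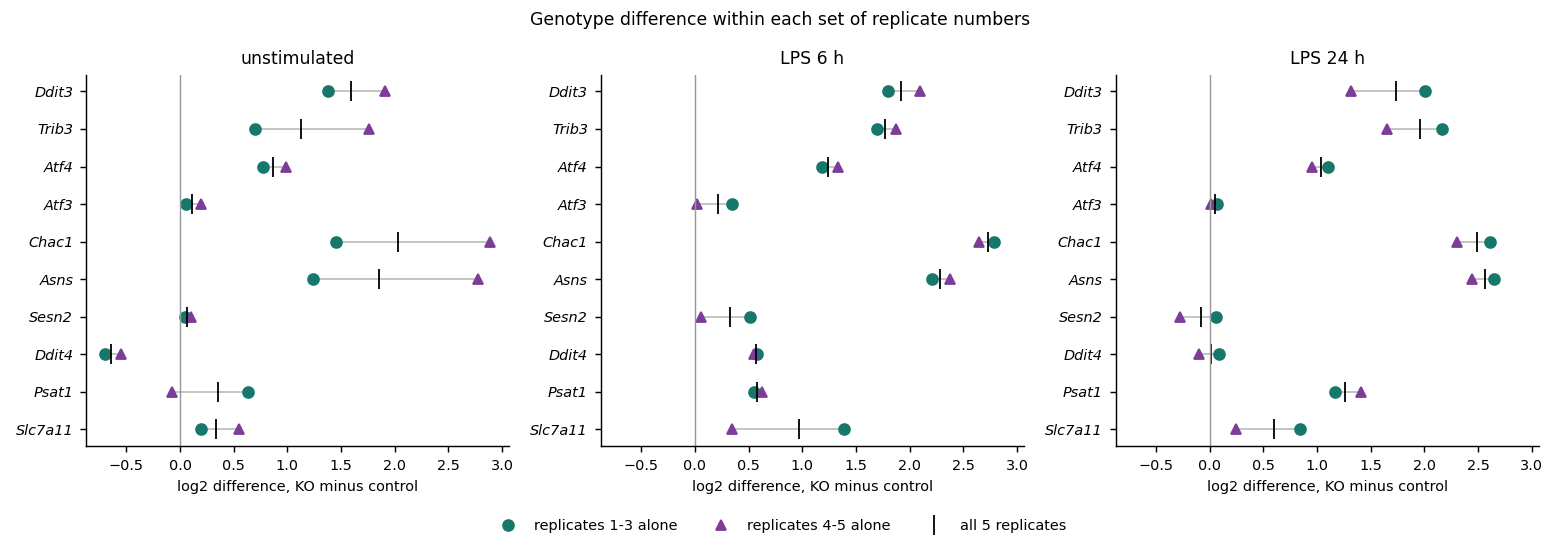
Log2 difference of KO minus control cells within replicates 1-3 alone (circles), within replicates 4-5 alone (triangles) and over all 5 replicates (vertical ticks), for each gene in a panel per time. Chac1 and Asns without LPS are the most unequal, at 1.45 and 1.24 in replicates 1-3 and at 2.88 and 2.77 in replicates 4-5, and both sets lie right of 0 at every time.

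Slides limit the genotype comparison. The 30 arrays were on 9 slides, and no slide held both genotypes at 1 treatment. KO cells at 24 h of LPS were tied to the other groups by 1 array, replicate 5, which shared its slide with 3 unstimulated control arrays, replicates 1 to 3. KO cells without LPS and at 6 h were tied to control cells by 1 other slide. It held replicates 1 and 2 of unstimulated KO cells and replicates 4 and 5 of control cells at 24 h. On both slides the replicate sets differ between the genotypes, so the blocked differences do not separate genotype from replicate set there. With slide as a block, Chac1, Asns and Atf4 were higher in KO cells without LPS, at 4.73 (adjusted p = 0.000441), 5.16 (adjusted p = 0.00216) and 1.16 (adjusted p = 0.0111) on the log2 scale, and at 6 h, at 4.34 (adjusted p = 0.00873), 4.58 (adjusted p = 0.0307) and 1.43 (adjusted p = 0.0307). At 24 h the blocked differences were 0.59 (adjusted p = 0.19) for Atf4, -0.61 (adjusted p = 0.549) for Chac1, -1.16 (adjusted p = 0.427) for Asns, 3.36 (adjusted p = 0.00344) for Psat1, -2.08 (adjusted p = 0.0435) for Ddit4 and -1.41 (adjusted p = 0.05) for Sesn2, with -0.14 for Trib3 and 1.03 for Ddit3 as descriptions. Without the block every genotype difference compares arrays of different slides, and with it 1 of the 8 tested members was higher at 24 h (Psat1) and 2 were lower (Ddit4 and Sesn2), in place of 4 and 0.

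Markers of other cells differed between the genotypes as well. Of 6 neutrophil markers that passed the filter (of 8 listed) 1, 3 and 3 were lower in KO cells without LPS, at 6 h and at 24 h, and their mean log2 ratio per array was 0.51 to 1.93, 0.67 to 2.25 and 0.57 to 2.27 in KO cells, against 1.5 to 3.09, 2.08 to 3.85 and 2.02 to 3.98 in control cells. It was higher in both of replicates 4 and 5 than in all of replicates 1 to 3 in 4 of the 6 groups, the exceptions being unstimulated KO cells and control cells at 24 h. Only 3 or 4 of these 6 markers were well above background on each KO array, against 4 to 6 on each control array. The KO means therefore include values near background, and the counts can hold markers that passed the filter only through control groups. Of 5 macrophage markers (of 8 listed) 1, 0 and 1 were higher in KO cells, the 1 being Cd14, with means of 1.84 to 2.74, 1.96 to 3.25 and 2.06 to 3.56 in KO cells, against 0.65 to 2.05, 0.87 to 2.72 and 0.89 to 3.08 in control cells. Of the 6 dendritic cell markers 3, 1 and 1 were lower in KO cells (Cd86, Ccr7 and Cd74 without LPS, and Cd74 with it). Their means were 1.62 to 2.84, 3.37 to 3.67 and 3.17 to 3.6 in KO cells, against 3.23 to 3.3, 2.71 to 4.08 and 3.59 to 3.91 in control cells. None of the 4 measured B, T and NK cell markers (of 6 listed) passed. The part of these cells in the stress gene differences was not tested, and in bulk RNA fewer cells of a type and less RNA per cell cannot be told apart.

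Other genes of the pathway were counted from lists outside the 10 members, each read against the 6.95%, 6.21% and 6.95% of all genes that were higher in KO cells. Of 11 ATF4 partners and other transcription factors, 4, 3 and 1 were higher and 0, 1 and 0 lower without LPS, at 6 h and at 24 h. Nupr1, a stress-induced chromatin-associated protein, was 1.72, 2.48 and 2.49 higher on the log2 scale. Cebpg, the C/EBP protein that pairs with ATF4, was 0.79 higher without LPS and 1.0 higher at 6 h, Atf2 0.44 and 0.46 higher at these times and Jun 1.04 higher without LPS, and Batf3 was lower at 6 h (-1.04). Of 10 measured eIF2alpha kinases, phosphatases and their regulators only Impact, an inhibitor of GCN2, passed, without LPS (1.05 higher), so that the counts were 1, 0 and 0. The list medians were 0.44, 0.38 and 0.27 for the partners and 0.10, 0.15 and 0.09 for the kinases and phosphatases.

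ATF4 is known to drive genes of amino acid supply. Of 8 serine and one-carbon enzymes 1, 3 and 2 were higher and 0 lower, led by Phgdh, the first enzyme of serine synthesis, at 1.39, 1.57 and 2.61. With Mthfd2 (0.78) and Aldh1l2 (0.74) at 6 h and Aldh1l2 (0.56) at 24 h this gave list medians of -0.07, 0.28 and 0.38. Of 6 measured enzymes of amino acid synthesis and sulphur metabolism 2, 3 and 2 were higher: Pck2 (0.84) and Glul (0.53) without LPS, Gpt2 (1.18), Pck2 (0.76) and Cth (0.73) at 6 h, and Gpt2 (0.95) and Cth (0.72) at 24 h. Of 12 amino acid transporters 2, 3 and 1 were higher, with the glycine transporter Slc6a9 higher at all 3 times (1.28, 1.01 and 1.71), Slc38a2 without LPS and at 6 h (1.02 and 0.97) and Slc3a2, the heavy chain partner of Slc7a11, at 6 h (1.44). Of 17 aminoacyl-tRNA synthetases 2, 5 and 6 were higher and 0, 0 and 1 lower, with Sars higher at all 3 times (0.83, 0.87 and 1.01). Eprs was 1.04 higher without LPS, Rars and Cars were 0.66 and 0.75 higher at 6 h and 1.13 and 0.89 higher at 24 h, and Qars was lower at 24 h (-0.64). The synthetase medians were 0.26, 0.40 and 0.58.

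Of 22 other targets of ATF4 or CHOP 5, 7 and 7 were higher and 0, 0 and 1 lower, with medians of 0.34, 0.52 and 0.49. Sqstm1, an autophagy receptor, was 1.95 higher without LPS and 1.92 higher at 6 h, and the zinc exporter gene Slc30a1 1.51 higher without LPS. Stc2 was 1.48 and 1.54 higher at 6 h and 24 h, the oxidoreductase gene Ero1a 1.42 higher at 6 h, and the stress cytokine gene Gdf15 and the mitochondrial protease gene Lonp1 1.30 and 1.12 higher at 24 h. The 1 lower gene was Bbc3 at 24 h (-0.51), a death gene of the BH3-only class that was 0.61 higher without LPS. Of 27 genes of the XBP1 and ATF6 branches 1, 2 and 2 were higher and 0, 2 and 1 lower, with medians of 0.20, 0.15 and 0.19. Derl1 was higher at all 3 times (0.88, 0.66 and 0.74), the chaperone gene Hspa5 at 6 h (1.00) and Derl2 at 24 h (0.42), while Sec61b was lower at 6 h and 24 h (-1.22 and -1.08) and Xbp1 at 6 h (-0.53).

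**Figure D4:**
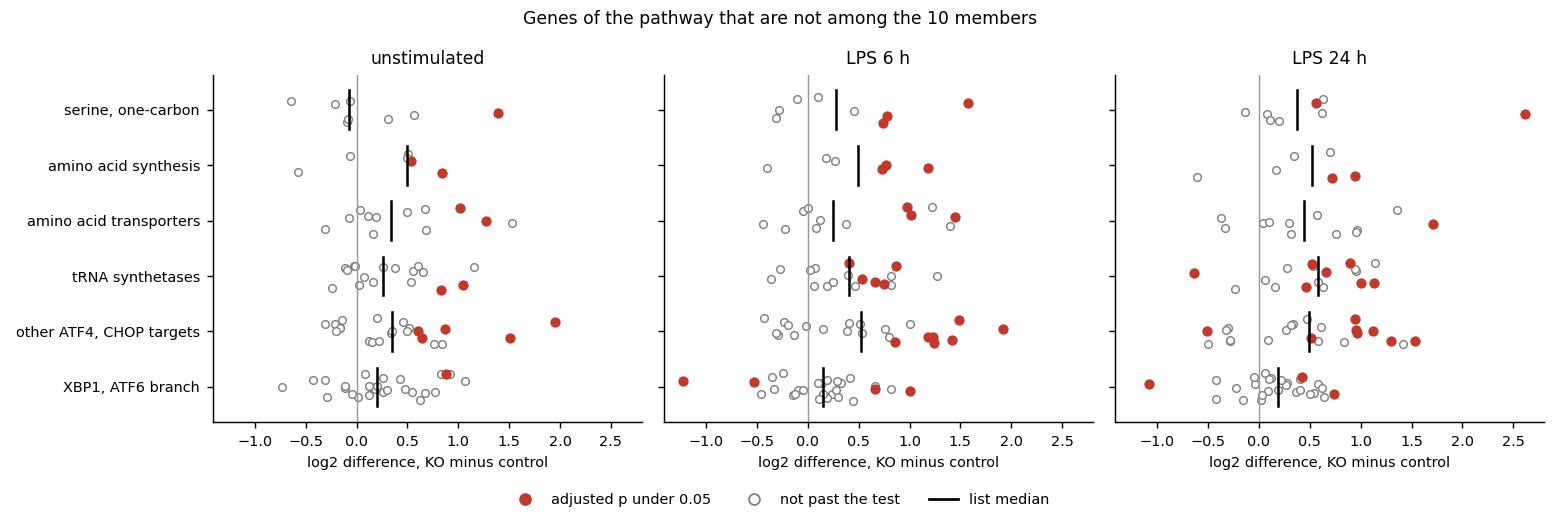
Log2 difference of KO minus control cells for each measured gene of 6 lists outside the 10 members, in a panel per time; filled points passed the test and the vertical bars are list medians. The farthest filled point to the right is Phgdh at 24 h, at 2.61 in the serine row, and the farthest to the left is Sec61b at 6 h, at -1.22 in the lowest row.

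Lists of neighbouring stress programmes were counted in the same way. Of 17 NRF2 targets Gsr was higher without LPS (0.94) and Gclc lower at 24 h (-0.69). Of 15 p53 targets 2, 0 and 0 were higher and 1, 1 and 2 lower, with Pmaip1 lower at all 3 times (-1.20, -0.97 and -1.37) and Polk 0.29 higher without LPS. Of 12 FOXO targets 2, 2 and 2 were higher and 1, 0 and 2 lower: Fbxo32 was higher at all 3 times (3.46, 2.67 and 1.82), Il7r without LPS (0.88) and Txnip at 6 h and 24 h (1.58 and 1.23), while Sesn3 was lower without LPS and at 24 h (-0.92 and -1.39) and Foxo1 at 24 h (-0.94). Of 13 mTORC1 regulators 4, 1 and 2 were higher and 1, 0 and 2 lower, with Deptor (0.93), Rragd (0.87), Rheb (0.85), Flcn (0.57) and Castor1 (-0.72) without LPS, Rheb at 6 h (0.91), and Castor1 (-1.0), Mtor (-0.91), Rheb (0.59) and Rragd (0.52) at 24 h. Of 6 paralogs of the tribbles, sestrin and Ddit4 genes 0 were higher, and 2, 0 and 2 were lower: Trib2 without LPS (-1.05), Sesn3 as given, and Ddit4l at 24 h (-1.19). Some genes stand in 2 lists, such as Gpt2, Rragd, Sesn3 and Bbc3.

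The second question was how LPS moved these genes within each genotype, which is not the contrast Ddit3 and Trib3 were named for. Slc7a11 was higher at both LPS times in both genotypes, Ddit3 was higher at 24 h in both, and Atf3 at 6 h and Ddit4 at 24 h were higher in KO cells. Chac1, Asns, Atf4, Trib3, Psat1 and Sesn2 passed the test in neither genotype at either time. In KO cells 2 of 10 members were higher at 6 h and 3 at 24 h, where 14.2% and 10.2% of all genes were higher, and 0 were lower, where 12.4% and 7.84% were lower. In control cells 1 of 10 was higher at 6 h and 2 at 24 h, where 7.16% and 7.23% of all genes were higher, and 0 were lower, where 4.52% and 5.08% were lower. The members' median LPS difference was 0.19 at 6 h and 0.26 at 24 h in KO cells, and -0.32 and 0.05 in control cells, against all-gene medians of 0.03, 0.02, 0.01 and 0.02.

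Slc7a11 in KO cells had log2 ratios of 4.31, 4.36, 4.19, 3.02 and 3.65 at 6 h and 4.01, 4.23, 4.02, 3.31 and 3.54 at 24 h, against 2.76, 2.3, 2.37, 2.15 and 2.51 without LPS. Every LPS array lay above every unstimulated one. The difference was 1.49 (SE 0.25, adjusted p = 6.98e-05) at 6 h, or 2.80-fold, and 1.4 (SE 0.25, adjusted p = 0.000251) at 24 h. In control cells it had 3.23, 3.15, 2.32, 3.1 and 2.88 at 6 h and 3.61, 2.61, 3.51, 3.17 and 3.19 at 24 h, against 2.18, 2.29, 2.39, 2.28 and 1.3 without LPS. The array on the later slide was the lowest of its group at both times. The difference was 0.85 (SE 0.25, adjusted p = 0.0261) at 6 h and 1.13 (SE 0.25, adjusted p = 0.00406) at 24 h. The 6 h call in control cells was lost in 4 of the 10 fits that left out 1 array of the groups compared (adjusted p up to 0.0855), and with median centring (adjusted p = 0.267), local backgrounds as scanned or the compared arrays alone. The 24 h call in control cells was lost with median centring, at 1.02 (adjusted p = 0.0519). Without the later slide the control differences were 1.0 (adjusted p = 0.00298) at 6 h and 1.28 (adjusted p = 0.000412) at 24 h. With slide as a block the KO difference at 24 h was -0.0083 (adjusted p = 0.994).

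In KO cells Ddit3 was higher at 24 h of LPS than in both other groups. Its log2 ratios there were 2.09, 2.14, 2.25, 1.55 and 1.75 at 24 h, against 1.16, 1.03, 1.03, 1.06 and 1.08 without LPS, and 0.94, 1.07, 0.63, 1.38 and 1.46 at 6 h. The difference was 0.88 (SE 0.23, adjusted p = 0.00693) against unstimulated cells and 0.86 (SE 0.23, adjusted p = 0.0181) against 6 h, and all 24 h arrays lay above the rest. Ddit3 was the 1 of 10 members to differ between 24 h and 6 h in KO cells, where 7.72% of all genes did in either direction. With the replicate numbers as a block that call held (adjusted p = 0.0132), but with slide as a block both were lost, at 0.27 (adjusted p = 0.668) against unstimulated cells and 0.39 (adjusted p = 0.591) against 6 h. Between 24 h and 6 h the KO difference was 1.28 within replicates 1 to 3 and 0.22 within replicates 4 and 5, and the call was lost without replicate 3 of either time (adjusted p = 0.0716 and 0.0528).

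In control cells Ddit3 had 0.66, -0.88, 0.67, 0.11 and 0.54 at 24 h, against -0.44, -0.18, -0.3, -0.92 and -0.77 without LPS and -0.74, -0.7, -1.32, -0.77 and -0.58 at 6 h. On 4 of 5 arrays the 24 h level was above every unstimulated one, and replicate 2, on the later slide, was at -0.88. The difference was 0.74 (SE 0.23, adjusted p = 0.0303) against unstimulated cells and 1.04 (SE 0.23, adjusted p = 0.00611) against 6 h, where 5.48% of all genes differed in either direction and Ddit3 was again the 1 member of 10. The first of these calls was lost in 6 of the 10 fits that left out 1 array (adjusted p 0.0501 to 0.0956). Without the later slide the differences were 1.02 (adjusted p = 9.51e-05) and 1.19 (adjusted p = 8.29e-05), and Atf4 then also passed between 24 h and 6 h, at 0.43 (adjusted p = 0.0338).

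Atf3 in KO cells had 3.53, 3.54, 3.57, 3.47 and 3.43 at 6 h, against 2.82, 2.92, 2.84, 2.99 and 3.22 without LPS, a difference of 0.55 (SE 0.19, adjusted p = 0.03) with no overlap. At 24 h it was 3.24, 3.35, 3.3, 3.38 and 3.35, again above every unstimulated array, at 0.37 (SE 0.19, adjusted p = 0.184). This difference passed with median centring, at 0.43 (adjusted p = 0.0276), with the compared arrays alone (adjusted p = 0.0177) and without the later slide (adjusted p = 0.00196), which holds no KO array and enters only through the shared spread. In control cells the difference was 0.45 (SE 0.19, adjusted p = 0.126) at 6 h and 0.43 (SE 0.19, adjusted p = 0.135) at 24 h over all arrays, and 0.65 (adjusted p = 4.1e-06) and 0.66 (adjusted p = 5.02e-06) without the later slide. It also passed with median centring, at 0.51 (adjusted p = 0.0143) and 0.43 (adjusted p = 0.0433), and with slide as a block, at 0.65 (adjusted p = 0.000697) and 0.73 (adjusted p = 0.00294). The KO difference at 6 h was lost without any 1 of 5 arrays (adjusted p up to 0.0674).

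Ddit4 in KO cells had -1.63, -1.42, -1.78, -2.44 and -2.46 at 24 h, against -3.56, -2.5, -2.91, -2.68 and -3.59 without LPS, and every 24 h array lay above every unstimulated one. The difference was 1.1 (SE 0.31, adjusted p = 0.0132). At 6 h it was 0.67 (SE 0.31, adjusted p = 0.107). With the replicate block the same difference passed the test (adjusted p = 0.0267). That block was fitted over all 6 groups, and in other pairs of groups the numbers do not pair the samples. In control cells it was -0.53 (SE 0.31, adjusted p = 0.31) at 6 h and 0.45 (SE 0.31, adjusted p = 0.385) at 24 h.

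Trib3 and Atf4 had lower means in control cells after 6 h of LPS. Trib3 had -1.03, -0.95, -1.63, -1.37 and -1.33 at 6 h, against -0.19, 0.31, 0.2, -1.39 and -1.16 without LPS, a difference of -0.82 (SE 0.28, adjusted p = 0.0566). It was -1.31 within replicates 1 to 3 and -0.07 within replicates 4 and 5. For Atf4 the difference was -0.34 (SE 0.14, adjusted p = 0.107), and -0.40 without the later slide, where it passed (adjusted p = 0.017). In KO cells the corresponding differences were -0.17 (SE 0.28, adjusted p = 0.687) for Trib3 and 0.04 (SE 0.14, adjusted p = 0.846) for Atf4.

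**Figure D5:**
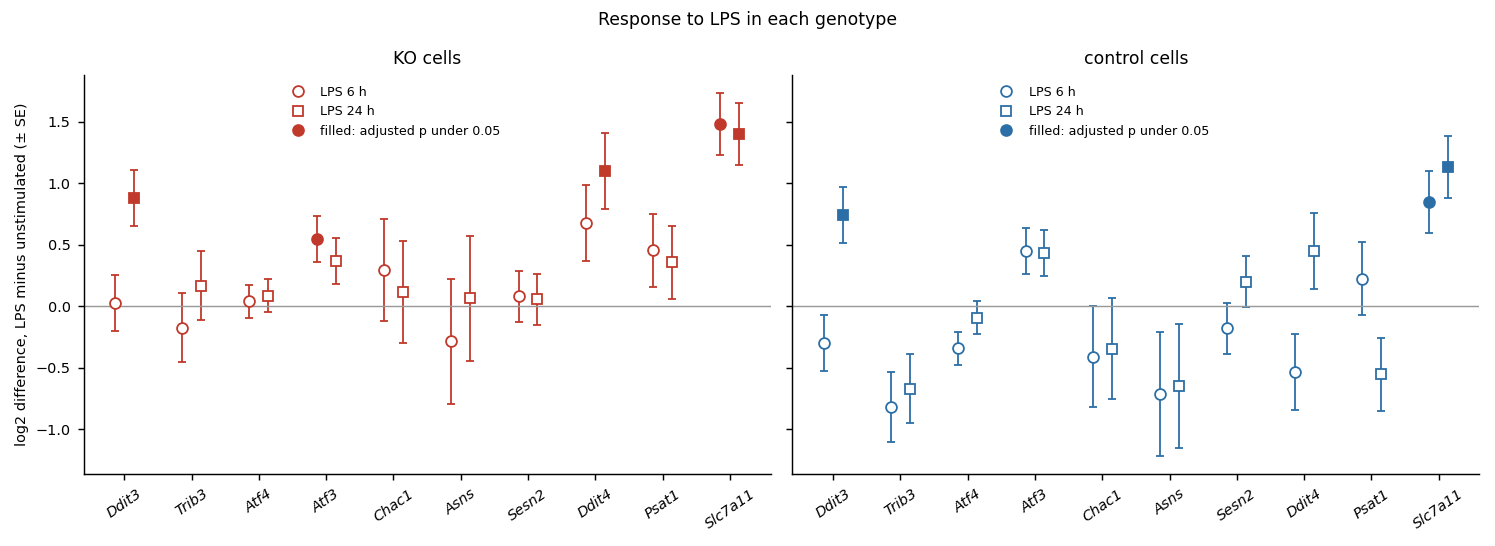
Log2 difference of LPS-treated minus unstimulated cells with its SE for each gene, KO cells on the left and control cells on the right, circles for 6 h, squares for 24 h and filled symbols where the test was passed. Slc7a11 is filled at both times in both panels, Ddit3 at 24 h in both, and Atf3 at 6 h and Ddit4 at 24 h in the KO panel.

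Slides that held both treatments of 1 genotype were few. On the slide with 1 KO array at 6 h and 3 unstimulated KO arrays the differences were 1.97 for Slc7a11, 1.00 for Ddit4, 0.52 for Atf3 and -0.12 for Ddit3. There the 6 h array was replicate 1 and the others replicates 3 to 5. On the slide with 2 control arrays of each of these treatments they were 1.4 for Slc7a11, 0.65 for Atf3, 1.25 for Chac1 and 0.12 for Ddit3. Its 6 h arrays were replicates 1 and 2 and its unstimulated arrays replicates 4 and 5, so LPS and replicate set cannot be told apart there. Unstimulated control Chac1 averaged -3.15 in replicates 4 and 5 and -1.58 in replicates 1 to 3. Over all control arrays its 6 h difference was -0.41 (limma, adjusted p = 0.611). Between 24 h and 6 h in control cells Ddit3 differed by 1.24 on one slide (2 arrays against 1) and by 0.44 on the later slide (1 against 1). On the first of these the 24 h arrays were replicates 1 and 3 and the 6 h array replicate 5, so time and replicate set cannot be told apart. With slide as a block, KO cells at 24 h were lower than unstimulated KO cells in Trib3, Chac1, Asns and Sesn2, at -2.14 (adjusted p = 0.00556), -3.55 (adjusted p = 0.00455), -4.67 (adjusted p = 0.00793) and -1.62 (adjusted p = 0.0423), and higher in Psat1, at 2.65 (adjusted p = 0.0168), through the same 1 linking array. The calls of Ddit3, Ddit4 and Slc7a11 at 24 h were lost there, with Ddit4 at -1.41 (adjusted p = 0.202).

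The difference of LPS responses between the genotypes was tested for the 8 members other than Ddit3 and Trib3. None of the 8 passed at 6 h or at 24 h, where 0.436% and 0.88% of all genes passed in either direction (limma; adjusted p between 0.354 and 0.984 at 6 h and between 0.403 and 0.953 at 24 h). The largest was Ddit4 at 6 h, 1.2 (SE 0.44, adjusted p = 0.354), followed by Psat1 at 24 h, 0.91 (SE 0.42, adjusted p = 0.403). For Ddit3 the differences of responses were 0.32 and 0.14, and for Trib3 0.64 and 0.84, as descriptions. The SEs of the tested members were 0.19 to 0.71 on the log2 scale, largest for Asns. Even a difference of 1.2, that of Ddit4 at 6 h, did not pass, so the lack of calls does not show that the responses were alike.

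Genes upstream of the pathway were counted for LPS as well. In KO cells, of 10 eIF2alpha kinases, phosphatases and their regulators 4 were higher and 2 lower at 6 h, and 2 higher and 2 lower at 24 h, where 14.2% and 12.4% of all genes were higher and lower at 6 h and 10.2% and 7.84% at 24 h. Eif2ak2, the interferon-induced kinase PKR, was 2.72 higher at 6 h and 1.45 higher at 24 h, and Eif2ak3, the endoplasmic reticulum kinase PERK, was lower at both (-1.17 and -0.93). In control cells 7.16% and 4.52% of all genes were higher and lower at 6 h, and 7.23% and 5.08% at 24 h. Of the 10 genes 2 were higher there at 6 h, Eif2ak2 (1.82) and Ppp1r15b (1.23), the constitutive eIF2alpha phosphatase subunit. At 24 h 1 of the 10 was lower, Dnajc3 (-0.44). None of the 10 differed between genotypes in its LPS response by the test. Of the 22 other targets of ATF4 or CHOP 1 did, Bbc3 at 24 h (-1.11, KO minus control), and of the p53 targets Bbc3 and Polk (-0.54).

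Correlations among the members across the 30 arrays are given as a description, since the points share groups and replicate sets. Trib3, Atf4, Chac1 and Asns had Pearson r of 0.91 to 0.96 with one another, and Ddit3 had 0.77 to 0.90 with them. After the group means were removed, with the replicate split left in, Chac1 and Asns had r = 0.91 and Trib3 and Chac1 0.77. Sesn2 and Psat1 had r = -0.53 over all arrays and -0.81 within groups, the replicate split included.

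The genes outside the members whose pattern over the 30 arrays was most like that of Ddit3 were Ms4a7 (r = 0.93), Esd (0.92), Ghitm (0.91), Gsta3 (0.91) and Cyb5r1 (0.90). Ms4a7, a membrane protein of macrophages, averaged 2.85, 3.33 and 4.55 in KO cells and 1.26, 1.41 and 1.68 in control cells without LPS, at 6 h and at 24 h. Those most like Trib3 were Cyb5r1 (0.95), Cox6a2 (0.93), Car6 (0.92), Ctso (0.92) and Rhbdd1 (0.92). Cyb5r1, a cytochrome b5 reductase, thus stood in both sets, at 0.58, 0.01 and 1.13 in KO cells and -1.12, -2.22 and -1.60 in control cells. These correlations include the genotype difference on which Ddit3 and Trib3 were chosen. All genes named here had higher means in KO cells at each time, so the likeness is a description.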

How the data were processed

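RNA of 30 cultures or mice was measured on 2-colour Agilent arrays. The deposited scanner files hold spot intensity per channel, per the file headers from Feature Extraction 10.7.3.1, and a log10 ratio of Cy5 over Cy3. The authors' deposited value table holds log2 ratios (Pearson r per array 0.999885 to 0.999998 with the values computed here), and limma is named in the submitters' processing notes without a version. Here limma 3.58.1 in R 4.3.3 applied normexp background correction (offset 50) and loess within arrays to 41174 probes, leaving 1639 control spots out. Probes were named through accessions in RefSeq's gene table (22951 probes), the brightest Cy5 probe stood for a gene, and a gene stayed in if every one of the 5 arrays in some group flagged that probe as well above background. No Cy5 spot was saturated. 1 model with a mean per group (24 residual degrees of freedom) gave all comparisons, with Benjamini-Hochberg adjustment over 11250 genes and a threshold of 0.05. The script was tested on simulated data. Alternatives were background, centring, filter, probe choice, slide, replicate block and single arrays left out.

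The members and lists were chosen with earlier results of these data known. Up to 3 called genes per list and comparison were to be named, those with the largest difference, and any further gene of a list was named after its values were seen. The 5 genes most like Ddit3 and Trib3 by Pearson r were named. Same-numbered samples deviated together (every correlation over 0.1) in KO 6 h against unstimulated (0.109 to 0.657), KO 24 h against 6 h (0.792 to 0.875) and control 24 h against unstimulated (0.177 to 0.732). The best match of a sample carried its own number in 4, 4 and 1 of 5 cases, so the last of these does not pair the control samples by number. The correlations also hold the split of replicates 4 and 5 from replicates 1 to 3. Any pairing comes from these data, not from the labels.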

Additional observations from a re-analysis of the deposited data

Results flagged for a closer look

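In 4 of the 60 sets of 5 values, a gene in a group, 1 array lay far from the other 4 by Dixon's test (gap over range above 0.71), and chance alone gives about 1 in 20. Ddit3 in control cells after 6 h of LPS was at -1.32 in replicate 3, against -0.77 to -0.58 on the other arrays. Atf3 in the same group was at 2.49 in replicate 3, against 3.43 to 3.58. Psat1 in control cells after 24 h of LPS was at -2.76 in replicate 2, against -2.06 to -1.87. These 3 values are on the 2 control arrays of the later slide, whose LPS response genes were near the unstimulated level. Slc7a11 in unstimulated control cells was at 1.30 in replicate 5, against 2.18 to 2.39.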

How the results depend on the processing

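The 3, 4 and 4 of 8 members higher in KO cells were 2 to 3, 4 and 4 with any 1 array left out, and 3, 3 to 5 and 4 to 5 under the other settings, except that the slide block at 24 h gave 1 higher and 2 lower, and median centring, the replicate block and the replicate term gave 1 lower member without LPS. LPS counts moved more. KO cells at 6 h (2 of 10) had 1 with Agilent's own log ratio and 1 to 3 with 1 array left out. With slide as a block KO cells had 5 at 24 h (main 3) and 4 between 24 h and 6 h (main 1), and with 1 array left out 3 and 0 to 1. Control cells at 6 h (main 1) had 0 with local backgrounds as scanned, 3 with Agilent's log ratio, 3 without the later slide, 3 with the slide block, 2 with the replicate block, 3 with a term for replicates 4 and 5, 0 with the compared arrays alone and 0 to 3 with 1 array left out. At 24 h (main 2) they had 6 with the slide block, 1 with the compared arrays alone and 1 to 3 with 1 array left out. Between 24 h and 6 h (main 1) they had 2 with Agilent's log ratio, the later slide left out or the slide block, 3 with the replicate block or the replicate term, 0 with the compared arrays alone and 1 to 2 with 1 array left out. The response difference at 24 h (main 0) had 4 with the slide block, and both response differences had 0 with any 1 array left out. Among all genes control cells at 6 h had 1314 calls, 2877 without the later slide, 2482 with the replicate block and 75 from the compared arrays alone. With the slide block the direction turned for KO against control at 24 h in Trib3 (-0.14), Chac1 (-0.61), Asns (-1.16) and Ddit4 (-2.08). It turned for KO at 24 h against unstimulated in Trib3 (-2.14), Chac1 (-3.55), Asns (-4.67), Sesn2 (-1.62), Ddit4 (-1.41) and Slc7a11 (-0.0083), and against 6 h in Trib3 (-2.08) and Asns (-5.08). It turned for control Chac1 at 6 h (1.25) and 24 h (1.78), and for the response differences of Ddit3 (-0.25) and Trib3 (-0.35) at 6 h and of Ddit3 (-0.76), Trib3 (-2.69), Chac1 (-5.33) and Asns (-6.31) at 24 h. The 1.25 is the Chac1 difference on the slide where LPS and replicate set cannot be told apart. The 24 h response difference of Ddit3 was -0.13 without the later slide or without control LPS 24 h replicate 2 (up to 0.25 with any other 1 array left out) and -0.59 in replicates 4 and 5 alone, where that of Trib3 was -0.11. The replicate block, where the numbers do not pair the samples, called Ddit4 in unstimulated cells between genotypes (adjusted p = 0.0473), Psat1 at 6 h between genotypes (adjusted p = 0.0485) Trib3 in control cells at 6 h (adjusted p = 0.0255), and Ddit4 (0.98, adjusted p = 0.00844) and Psat1 (-0.78, adjusted p = 0.017) in control cells between 24 h and 6 h. The cause was not tested.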
